A study of Mus musculus with 23 samples.

Results

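The comparison described here is the difference between foot-shock and control brain libraries that mice of both genotypes in the study share. All 23 of the 23 libraries with labels entered it, 11 from foot-shocked mice and 12 from controls, with genotype as an additive term and no interaction. The mice were male and of the C57BL/6J strain. One genotype was wild type (WT) and the other carried an edited Grin2b allele named C456Y in the series title (HT, called heterotype in the sample labels and heterozygous in the series text). The 4 groups were WT control with 6 libraries, WT shock with 5, HT control with 6 and HT shock with 6. Foot-shock is a mild electrical stimulus delivered through the floor of a cage. The time between the shock and the collection of tissue, the number of shocks and the brain region are not stated in the labels. The labels give postnatal day 17 for every library whereas the series text speaks of adult mice, so the age is unresolved. Nothing in the labels ties a library to an animal of its own, and the p-values therefore measure the spread between libraries, which may be technical.

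Foot-shock is used to study fear learning and stress. An aversive stimulus activates neurons, and calcium entry, partly through NMDA receptors, switches on immediate early genes such as Fos, Arc and Npas4. Their transcripts appear quickly and decay within hours. The same stimulus releases corticosterone from the adrenal gland, and the glucocorticoid receptor then switches on genes such as Fkbp5, Sgk1, Tsc22d3 and Per1 in neurons, glia and vessels. Grin2b encodes GluN2B, a subunit of the NMDA receptor. A response carried by both genotypes would be seen as genes that differ in the same direction in WT and in HT mice.

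The unit is the normalized count as deposited, and differences are shock minus control on the log2(normalized count + 1) scale. The table held 18578 genes, and 17118 of them had a mean of 10 or more and entered the tests. The normalized counts of a library summed to 30.98 M to 32.57 M (M, mega), totals set by the normalization, and sequencing depth is unknown. Of markers of the labelled tissue, 18 of 18 general neuron genes, 20 of 20 astrocyte genes and 24 of 24 mature oligodendrocyte genes passed the filter. So did 20 of 20 genes of striatal projection neurons, 16 of 16 hippocampal and 18 of 18 cerebellar genes. Of hypothalamic genes 14 of 16 passed, and of midbrain monoamine genes 14 of 16. Most genes of any kind passed this filter (17118 of 18578), so these counts do not show which regions were sampled. The first principal component set 1 library apart from its group. HT control replicate 6 lay at 31.3 on the first principal component, on which the other 5 HT control libraries lay between -12.7 and 5.17 and the 6 HT shock libraries between 11.4 and 25.95. On the second component HT control replicate 1 lay at -30.4 and WT control replicate 1 at -21.0. HT shock replicates 6 and 1 lay there at -23.4 and -19.8, and every other library lay at -7.1 or above. The counts of called genes are given with and without HT control replicate 6.

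No gene passed the shock comparison over both genotypes. By limma with Benjamini-Hochberg adjustment over all genes, 0 of 17118 genes (0%) had an adjusted p under 0.05, the smallest being 0.524. At an unadjusted p under 0.05 there were 1625 genes, 9.49% of those tested. Of these, 796 (4.65%) were higher and 829 (4.84%) lower in shock libraries. Differences were small throughout. The median size of a difference was 0.05 on the log2 scale, and 95% of genes were within 0.25. A difference of more than 1.2-fold in either direction was estimated for 776 genes and one of more than 1.5-fold for 84.

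The intervals show what sizes of shared difference these libraries could hold. The 95% interval of a gene reached a median of 0.11 to either side of its estimate. For 15856 genes (92.6%) the whole interval lay within 1.5-fold of no difference, and for 11896 genes (69.5%) it lay within 1.2-fold.

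The 2 genotypes, whose shock comparisons share no library, gave nearly unrelated differences. Across the 17118 genes, which are not independent replicates, the WT and HT differences had a Pearson correlation of -0.0023 and a Spearman correlation of 0.08. Among the 12832 genes with a mean of at least 100, Pearson's r was 0.04. Noise lowers such correlations, and the median half-width of a pooled interval (0.11) exceeded the median size of a pooled difference (0.05). The correlations therefore do not show that the genotypes respond differently. The sign was the same in both genotypes for 9442 genes, 55.2% of those tested. With 1 library omitted in turn, that share ran from 51.2% (without WT control replicate 4) to 57.4% (without WT control replicate 1). The Spearman correlation ran from 0.01 to 0.14 in the same 2 omissions. Of 2352 genes with an unadjusted p under 0.05 in HT, 1398 (59.4%) had the same sign in WT. Of 637 such genes in WT, 305 (47.9%) had the same sign in HT. Each sign that was looked up came from libraries of the other genotype. The p that selected the genes used a spread estimated over all 23 libraries, so the selection was not fully separate. Without HT control replicate 6 the 2 shares were 3134 of 4740 (66.1%) and 471 of 792 (59.5%), against 57.2% of all genes in that setting. A total of 36 genes (0.21%) reached an unadjusted p under 0.05 in each genotype in the same direction, 16 higher and 20 lower, against 32 genes that did so in opposite directions. For 0 genes (0%) did shock and control libraries separate without overlap in both genotypes in the same direction.

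**Figure D1:**
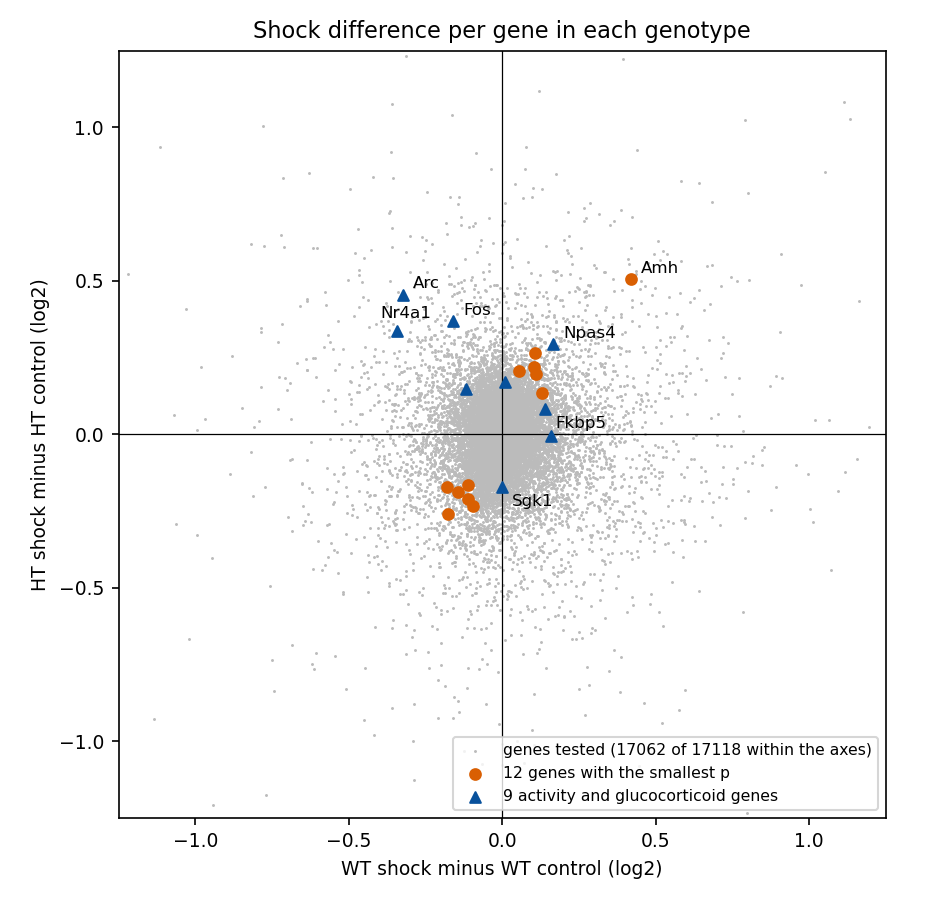
Shock minus control difference (log2) of each gene within WT (horizontal axis) and within HT (vertical axis), for the 17062 of 17118 genes inside the axes. The cloud has no slope (Pearson's r of -0.0023), the 12 genes with the smallest pooled p lie where both genotypes have the same sign, which that choice favours, and Arc, Nr4a1 and Fos lie to the upper left.

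Sign agreement between the genotypes was lower after a correction for transcript length and base composition. Across 17106 genes with an annotated length, the pooled difference had a Spearman correlation of -0.25 with transcript length and of 0.32 with GC content. Shorter and more GC-rich transcripts were thus higher in shock libraries, and the same signs held within WT (-0.09 and 0.22) and within HT (-0.26 and 0.27). After each library was corrected for length and GC content, 49.7% of genes had the same sign in both genotypes, against 55.2% before. The Spearman correlation between genotypes was then 0.0023, and of 2025 genes with an unadjusted p under 0.05 in HT, 1015 (50.1%) had the same sign in WT. Of 648 such genes in WT, 283 (43.7%) had the same sign in HT. Such a correction would also remove a shock difference that follows length or GC content. The part of length and GC content in the agreement was not tested.

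Of the 6 lower genes with the smallest p, 2 (Cacnb2 and Kcnab1) encode channel subunits, and the values of all 6 are a description because the p chose them. Cacnb2 (ENSMUSG00000057914, GRCm38 chromosome 2, 14603088 to 14987908, plus strand) encodes an auxiliary beta subunit that carries voltage-gated calcium channels to the membrane. Its normalized counts ran from 1679 to 2057 in WT control with a median of 1925, and from 1489 to 1867 in HT control with a median of 1698. In WT shock they were 1786, 1598, 1661, 1680 and 1644, and in HT shock they ran from 1379 to 1615 with a median of 1482. The groups overlapped in both genotypes, with 1 WT control library among the WT shock values. The difference was -0.18 ± 0.04 (SE, limma adjusted p = 0.524), and it was alike in WT (-0.18) and HT (-0.17).

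Ankrd34b, which encodes an ankyrin repeat protein, had differences of similar size in both genotypes. Its normalized counts ran from 1019 to 1133 in WT control (median 1087), and the WT shock libraries had 943.5, 942, 1034, 938.9 and 953. In HT control they ran from 786.8 to 1099 (median 1032) and in HT shock from 774.7 to 921.2 (median 801.1). In WT only replicate 3 of shock reached into the control range, and in HT the 2 lowest control libraries lay inside the shock range. The difference was -0.22 ± 0.05 (SE, limma adjusted p = 0.524), with -0.18 in WT and -0.26 in HT.

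Kcnab1 encodes a beta subunit of voltage-gated potassium channels. Its 6 WT control libraries had 3690 to 3823 normalized counts (median 3762), above all 5 WT shock libraries, with 3378, 3588, 3645, 3440 and 3411. The HT control libraries ran from 2812 to 3639 (median 3404), and the HT shock libraries from 2696 to 3128 (median 3013). Only replicate 6 of HT control lay within the range of HT shock, and the other 5 lay above all HT shock libraries. The difference was -0.14 ± 0.03 (SE, limma adjusted p = 0.524).

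Other lower genes of this rank were Ddx21, an RNA helicase of ribosome production (-0.17 ± 0.04), Ccser2, a coiled-coil protein gene (-0.17 ± 0.04), and Mbip, whose product is a subunit of a histone acetylase complex (-0.16 ± 0.04), each as difference ± SE. Mbip had 305.7 to 320.5 normalized counts in HT shock, below all HT control libraries (336.7 to 401). In WT its groups overlapped, with 338.8 to 386.7 in shock and 346.7 to 420.1 in control.

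Among higher genes the smallest p belonged to Amh, which encodes anti-Müllerian hormone, a member of the TGF-beta family. Its level was low, with 31.7 to 51.5 normalized counts in WT control (median 42.9) and 31.03 to 54.6 in HT control (median 45.3). The WT shock libraries had 45.0, 53.8, 57.4, 58.3 and 58.7, and the HT shock libraries ran from 53.2 to 71.0 (median 61.0). Amh was thus on average higher after shock in both genotypes with overlap in each. The difference was 0.46 ± 0.10 (SE, limma adjusted p = 0.524), a 1.38-fold ratio, with 0.42 in WT and 0.51 in HT.

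Prrc2a, which encodes a large RNA-binding protein, was separated in HT and not in WT. HT shock libraries had 16511 to 17477 normalized counts, above all HT control libraries (13603 to 15932). In WT, the shock libraries had 14899, 14630, 14719, 15132 and 15709, inside or just above the control range of 13520 to 15223. The pooled difference was 0.13 ± 0.03 (SE), with 0.06 in WT and 0.21 in HT. The test of the difference between genotypes gave an unadjusted p of 0.00905 and did not pass (limma adjusted p = 0.713).

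Mmaa, which encodes a protein that serves mitochondrial vitamin B12 metabolism, had nearly the same difference in both genotypes. Its WT control libraries lay within 800.1 to 843.7 normalized counts, and the WT shock libraries had 880, 835.4, 957.6, 885.5 and 904.3. HT control ran from 786.9 to 954.6 and HT shock from 905.3 to 1012, so 1 of 5 WT shock libraries lay in the control range and the HT groups overlapped. The difference was 0.13 ± 0.03 (SE, limma adjusted p = 0.524). The others of this rank were Ltbp4, a gene for a TGF-beta binding matrix protein (0.19 ± 0.05), Prpf40b, a splicing factor gene (0.17 ± 0.04), and Il11ra1, a cytokine receptor gene (0.16 ± 0.04), each as difference ± SE.

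**Figure D2:**
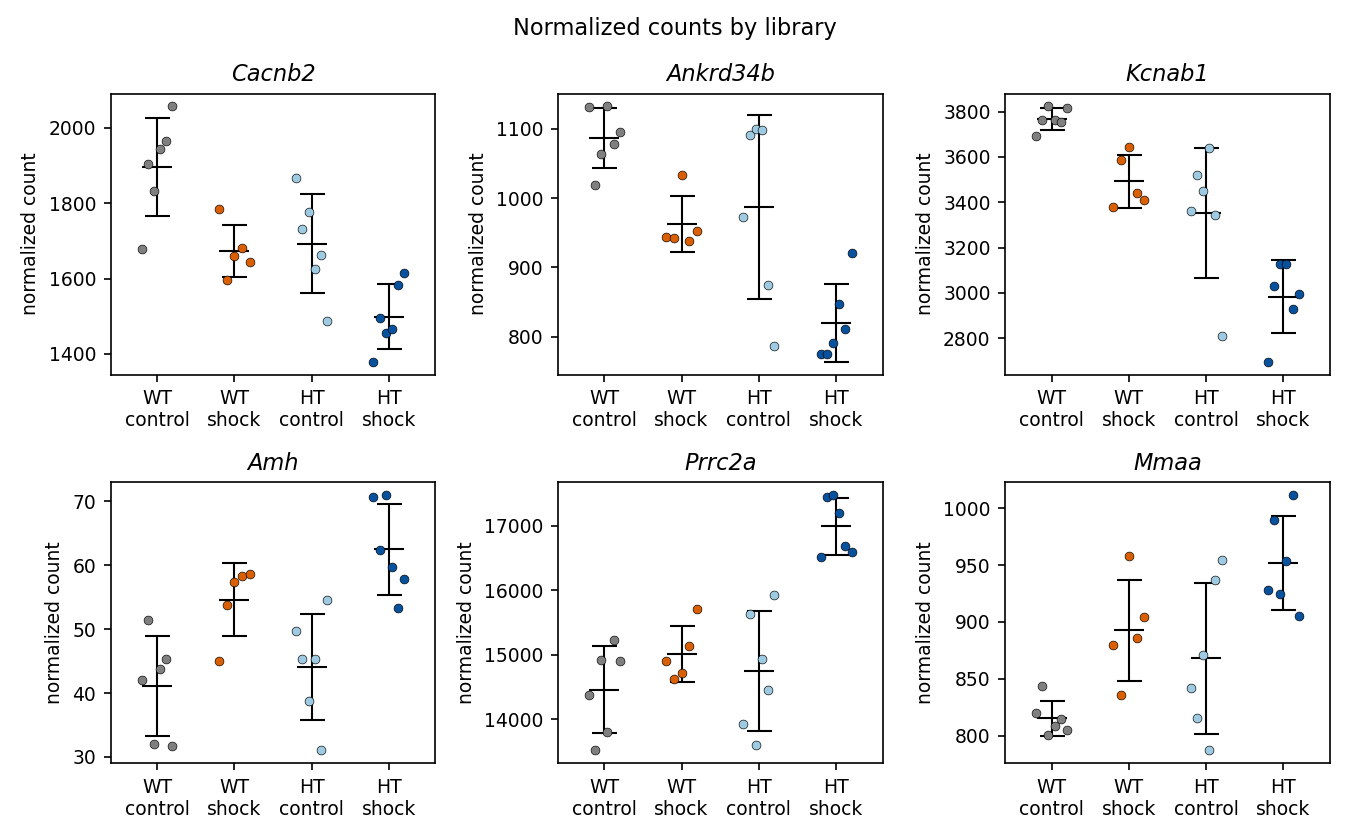
Normalized counts of 6 genes with small p values in the pooled shock comparison, one point per library, with the group mean and SD (n of 6, 5, 6 and 6); vertical axes do not start at 0. Shock libraries lie lower for Cacnb2, Ankrd34b and Kcnab1 and higher for Amh and Mmaa in both genotypes, while Prrc2a separates in HT.

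Without HT control replicate 6 the comparison called 34 genes (0.199% of those tested), 5 higher and 29 lower. No other single omission called any gene. HT control replicate 6 lay beyond the HT shock libraries on the first principal component, so its omission in itself favours such calls. With this library in, none was called, although each of the 34 had the same sign and an unadjusted p under 0.05. All 34 had the same sign in WT and in HT, which the pooled fit that chose them favours. In WT alone 8 had an unadjusted p under 0.05, where 637 of all 17118 genes did. The pooled fit that chose the 34 holds these WT libraries, which favours this count too. Of the 34 genes, 0 had an interaction that passed. The higher genes in that setting were Amh, Prrc2a, Palm (0.10 ± 0.02), Prkcsh (0.13 ± 0.03) and Slc22a17 (0.10 ± 0.02), as difference ± SE. Palm encodes a membrane-shaping protein of neurons and Prkcsh a subunit of an enzyme that trims glycans in the endoplasmic reticulum. These 2 genes and the lower ones in the next paragraph were singled out because that setting called them.

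Of the 29 lower genes, Kcnab1 had a difference of -0.16 ± 0.03 (SE, limma adjusted p = 0.0151) and Cacnb2 one of -0.19 ± 0.04 (adjusted p = 0.0255) without HT control replicate 6. A second calcium channel beta subunit, Cacnb4, stood at -0.20 ± 0.04 (adjusted p = 0.0486). Spock3, a proteoglycan gene of the extracellular matrix, stood at -0.20 ± 0.03 and Samd5 at -0.22 ± 0.04, both with an adjusted p of 0.0151. Transcription and chromatin regulators in the set were Foxp2 (-0.20), Bhlhe41 (-0.15) and Pbrm1 (-0.27), a subunit of a chromatin remodelling complex. The lowest values belonged to Slc9a7, a sodium-proton exchanger gene (-0.41 ± 0.09), and Gprin3 (-0.40 ± 0.09), each with an adjusted p of 0.0486. Weighting the libraries by their spread, which gave HT control replicate 6 a weight of 0.315 against 0.71 to 1.58 for the others, called 6 genes. These were Ankrd34b, Cacnb2, Ccser2, Kcnab1, Samd5 and Spock3, all lower and all among the 34. When the same library was omitted and length and GC content were corrected together, 1 gene was called, Ankrd34b, which was lower. It was thus called in each of the 3 settings that called any gene. All of these settings omit or down-weight HT control replicate 6, so their shared calls are not independent of each other.

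Immediate early genes did not separate shock from control libraries. None of the 34 tested passed, and 1 (Jund, 0.09) had an unadjusted p under 0.05, where 9.49% of all genes did. The median difference of the list was 0.03 against 0.00 for all genes. Their median was -0.08 in WT and 0.15 in HT, with 25 of 34 negative in WT and 29 of 34 positive in HT. Of all 17118 genes, 8587 were negative in WT and 8735 positive in HT. Without HT control replicate 6 the pooled median was 0.0007, with 17 positive and 17 negative. Without WT control replicate 5 it was 0.091.

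Fos, which encodes a subunit of the AP-1 transcription factor, varied several-fold within each group. It had 409.4 to 1954 normalized counts in WT control, 939.5, 1202, 729.4, 744.9 and 412.1 in WT shock, 517 to 1539 in HT control and 726 to 1487 in HT shock. The ranges overlapped almost fully. The difference was 0.12 ± 0.26 (SE, exact permutation p = 0.66, limma adjusted p = 0.885), with a 95% interval from -0.43 to 0.66. It was 0.24 without WT control replicate 5 and 0.032 without HT control replicate 6. For this gene and the 9 below, the exact test was two-sided and ran over all 426888 arrangements of the treatment labels within genotypes.

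Arc, whose protein acts at synapses, stood at 0.08 ± 0.29 (SE, exact permutation p = 0.771), with -0.32 in WT and 0.46 in HT. It had 2325 to 9024 normalized counts in WT control, 5034, 5825, 4792, 3053 and 2248 in WT shock, 2526 to 7984 in HT control and 2816 to 9847 in HT shock. The sign of the pooled value turned negative without HT control replicate 5 or 6. Nr4a1, an orphan nuclear receptor gene, stood at 0.01 ± 0.21 (exact permutation p = 0.948) and also had opposite signs in WT (-0.34) and HT (0.34). By limma's interaction term the difference between genotypes did not pass for Fos (adjusted p = 0.857), Arc (adjusted p = 0.813) or Nr4a1 (adjusted p = 0.787).

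Egr1, a zinc finger transcription factor gene, was the least variable of the 5, with 5602 to 11444 normalized counts in WT control, 6151 to 10333 in WT shock, 7687 to 11985 in HT control and 9025 to 11616 in HT shock. Its difference was 0.09 ± 0.12 (SE, exact permutation p = 0.429). Npas4, an activity-dependent factor selective for neurons, had the highest estimate, 0.23 ± 0.23 (exact permutation p = 0.324), with 0.17 in WT and 0.29 in HT. Its 95% interval ran from -0.24 to 0.71, so a level 1.5-fold higher lies inside it. With 1 library omitted in turn, Egr1 ran from 0.047 (without WT control replicate 3) to 0.15 (without WT shock replicate 5) and Npas4 from 0.14 (without WT control replicate 3) to 0.33 (without WT control replicate 5).

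**Figure D3:**
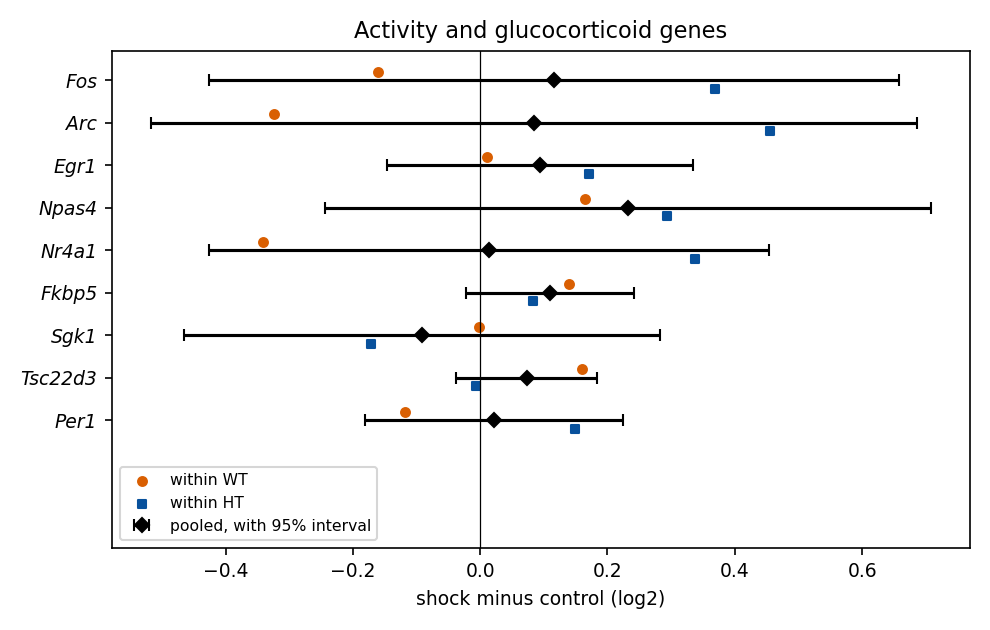
Shock minus control difference (log2) of 5 immediate early genes (Fos to Nr4a1) and 4 glucocorticoid-induced genes (Fkbp5 to Per1). Diamonds are pooled estimates with 95% intervals from limma, circles WT and squares HT estimates, and all 9 pooled intervals include 0.

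Glucocorticoid-induced genes were likewise undivided by treatment. Of 30 tested, 1 had an unadjusted p under 0.05 (Cdkn1a, a cell cycle inhibitor gene, 0.19), 19 were positive, and the median was 0.04. Of all genes, 9.49% reached that p and 8870 of 17118 were positive. Fkbp5, a co-chaperone gene of the glucocorticoid receptor, had 1094 to 1425 normalized counts in WT control and 1344, 1129, 1688, 1253 and 1309 in WT shock. It had 961.3 to 1225 in HT control and 1054 to 1383 in HT shock, so the shock ranges reached higher and the groups overlapped. Its difference was 0.11 ± 0.06 (SE, exact permutation p = 0.133), with 0.14 in WT and 0.08 in HT. Tsc22d3, which encodes the leucine zipper protein GILZ, stood at 0.07 ± 0.05 (exact permutation p = 0.232), Sgk1, a kinase gene, at -0.09 ± 0.18 (exact permutation p = 0.616) and Per1, a clock gene, at 0.02 ± 0.10 (exact permutation p = 0.835). Genes of the corticosteroid axis included Pomc, the precursor gene of ACTH and endorphin (0.30, unadjusted p = 0.0284), and Nr3c2, the mineralocorticoid receptor gene (-0.10, unadjusted p = 0.00833), neither past adjustment. Without WT shock replicate 3 the differences were 0.070 for Fkbp5, 0.036 for Tsc22d3 and 0.12 for Cdkn1a. Sgk1 ran from -0.20 with library weights to -0.025 without WT shock replicate 4.

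A pair of WT libraries, 1 in each treatment, stood apart for stress and inflammation lists. List scores are the mean log2 deviation of the list's genes from their mean over the 23 libraries. For 11 acute inflammation genes, WT control replicate 6 scored 1.44 and WT shock replicate 3 scored 1.61, where the other libraries of all groups scored -0.61 to 0.56. The pooled inflammation median was 0.04. Omitting WT shock replicate 3 gave -0.029, and omitting WT control replicate 6 gave 0.18. The same pair had the 2 highest glucocorticoid scores, 0.47 and 0.64. They also had the 2 highest scores for chaperone genes, 0.36 and 0.42, and WT shock replicate 3 scored 1.45 for blood genes. The chaperone list had 28 of 30 genes positive, where 8870 of all 17118 were, with a median of 0.07. Its smallest p by limma belonged to Atf4 (0.08, unadjusted p = 0.015), a transcription factor gene of the integrated stress response. That median was 0.025 without WT shock replicate 3. The glucocorticoid median turned to -0.0031 without the same library. The part of these libraries' state in the pooled differences was not tested.

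The most uniform list was that of striatal projection neurons, the GABAergic output cells of the striatum. All 20 genes had a negative difference, 16 of them with an unadjusted p under 0.05, where 4.84% of all genes were lower at that p. Their median was -0.17 against 0.00 for all genes, and 0 passed adjustment over all genes. The genes of a list vary together across libraries and are not separate observations. In whole-tissue RNA, fewer cells of a type and less RNA per cell cannot be told apart. This list was already known from earlier results of these libraries to lie low in each genotype, so its direction is not independent evidence.

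The list score showed where the difference lay. The 6 WT control libraries scored 0.20, 0.28, 0.22, 0.12, 0.19 and 0.14, and the 5 WT shock libraries scored 0.11, 0.12, 0.09, 0.08 and 0.10. WT shock lay just below WT control, with the highest WT shock library at 0.1200 and the lowest WT control library at 0.1246. HT control ran from -0.24 (replicate 6) to 0.18 with a median of -0.0078, and HT shock from -0.59 (replicate 1) to -0.04 with a median of -0.23. The HT groups overlapped, HT control replicate 6 lying inside the HT shock range. Mean scores were 0.19 and 0.10 in WT control and WT shock and -0.02 and -0.26 in HT control and HT shock.

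Among these genes, Rarb, a retinoic acid receptor gene used in striatal development, had the same size of difference in both genotypes, -0.28 in WT and -0.24 in HT. Its normalized counts were 589.3 to 731.8 in WT control and 568.1, 480.6, 531.9, 582.4 and 511 in WT shock, with no overlap. In HT control they were 422.7 to 685.4 and in HT shock 316.9 to 539.3, with overlap. The pooled difference was -0.26 ± 0.07 (SE, limma adjusted p = 0.524). Scn4b, a sodium channel beta subunit gene, stood at -0.25 ± 0.07, with -0.12 in WT and -0.37 in HT. It had 8300 to 9763 normalized counts in WT control, 7738, 7995, 7739, 8586 and 8619 in WT shock, 5720 to 8126 in HT control and 4448 to 6777 in HT shock.

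Negative estimates were larger in HT than in WT for the list median and for some markers of both the indirect and the direct pathway, named after their values were seen. Of the indirect pathway, Adora2a, an adenosine receptor gene, stood at -0.04 in WT and -0.49 in HT. Drd2, the dopamine D2 receptor gene, stood at -0.04 and -0.34. The direct pathway gene Drd1 (-0.03 and -0.25) and the phosphodiesterase gene Pde10a (-0.10 and -0.42) had the same order. Tac1, also of the direct pathway, was alike in both (-0.12 and -0.10), as was Rarb (-0.28 and -0.24), and neither had this order. Of the 20 genes, 18 were negative in WT and 20 in HT, and the medians were -0.09 and -0.24. No interaction among all genes passed, so a difference between the genotypes is not shown.

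The striatal list kept its direction under each library omitted in turn. All 20 genes were negative without any single library, the count with an unadjusted p under 0.05 lay between 13 (without HT shock replicate 1) and 19 (without HT control replicate 6), and the median lay between -0.191 and -0.136. After correction for length and GC content the median was -0.165 and 17 genes had an unadjusted p under 0.05. Genes of other regions had medians of -0.07 (18 cerebellar genes, 15 negative), -0.04 (16 thalamic genes, 12 negative), 0.03 (16 hippocampal genes) and 0.03 (20 cortical glutamatergic genes). The medians were -0.06 for 14 midbrain monoamine genes (10 negative) and 0.06 for 14 hypothalamic genes. In WT and HT they were 0.0029 and -0.14 for cerebellar and 0.11 and -0.17 for midbrain monoamine genes. For hippocampal genes they were -0.02 and 0.06, and for cortical genes -0.03 and 0.08. The thalamic median was -0.066 without HT control replicate 6, the hippocampal one -0.0004 without WT control replicate 1 and the cortical one 0.016 without HT control replicate 4. The part of regional tissue content in these values was not tested.

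**Figure D4:**
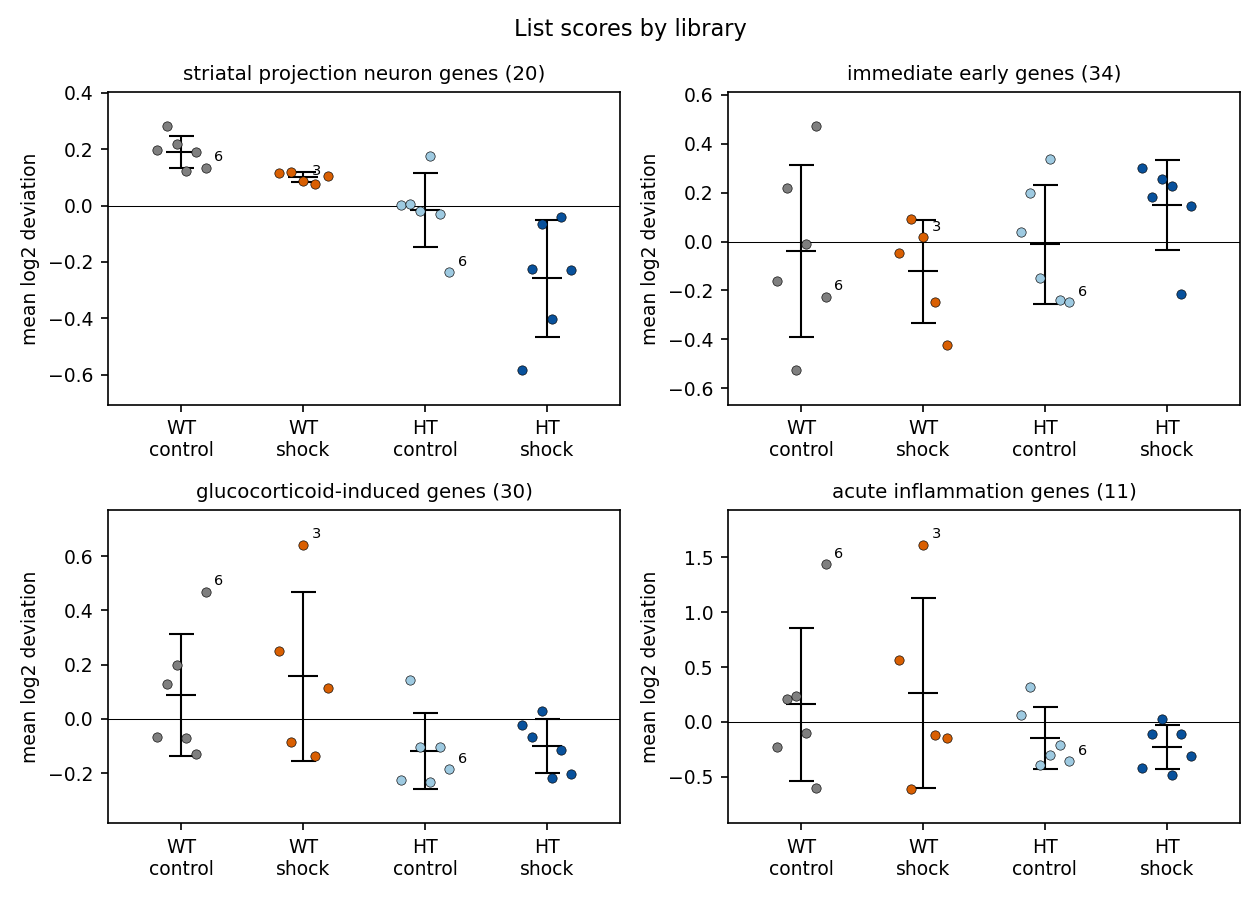
Scores of 4 gene lists in each library (mean log2 deviation of the list's genes from their mean over 23 libraries), with group means and SDs; digits mark HT control replicate 6, WT control replicate 6 and WT shock replicate 3. Striatal scores are on average lower after shock in both genotypes, and the 2 WT libraries stand apart for acute inflammation at 1.44 and 1.61.

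Channel and receptor genes were more often negative than positive. Of 38 voltage-gated channel genes, 27 were negative, 8 were lower and 1 higher at an unadjusted p under 0.05, and the median was -0.04. Of all genes, 8248 of 17118 were negative, 4.84% were lower and 4.65% higher at that p. Cacna1b, the pore subunit gene of N-type calcium channels, stood at -0.13 (unadjusted p = 0.00072), with -0.07 in WT and -0.18 in HT. Of 16 GABA receptor genes, 11 were negative and 2 lower at that p, with a median of -0.06. After correction for length and GC content that median was -0.016, and the channel median was -0.030. Transcripts of these lists had median lengths of 5067 bases for channels and 2816 bases for GABA receptors against 2168 bases for all genes, and the GABA receptor genes had a median GC content of 44.2% against 50.6%.

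Grin2b had 12521 to 15225 normalized counts in WT control and 13111, 13831, 14218, 12272 and 10734 in WT shock. HT control ran from 9556 to 14275 and HT shock from 9874 to 11518, so both genotypes overlapped. The pooled difference was -0.14 ± 0.06 (SE, exact permutation p = 0.0308, limma adjusted p = 0.524 over all genes), with -0.09 in WT and -0.19 in HT. The C456Y allele is a missense allele by its name, and the total of both alleles was measured, so the level does not check the genotype labels. Grin1, the obligatory NMDA receptor subunit gene, stood at 0.05, and the 8 NMDA receptor genes had a median of -0.02, with 3 positive and 5 negative.

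Short housekeeping transcripts were the reverse. Cytosolic ribosomal protein genes were positive in 72 of 74 cases with a median of 0.06, of which 4 had an unadjusted p under 0.05. Nuclear genes of the respiratory chain were positive in 67 of 75 with a median of 0.04, 9 of them at that p, the smallest p belonging to Atp5j (0.09), a subunit gene of ATP synthase. Proteasome genes were positive in 29 of 31 with a median of 0.05 and 8 at that p, the smallest belonging to Psmc4 (0.09). For comparison, 8870 of all 17118 genes were positive and 4.65% were higher at that p. The medians in WT and HT were 0.03 and 0.08 for ribosomal, 0.0075 and 0.08 for respiratory chain and 0.02 and 0.07 for proteasome genes. In WT 60 of 74, 43 of 75 and 21 of 31 of these genes were positive, and in HT 66, 68 and 30.

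These lists also differed from other genes in length. Ribosomal protein transcripts had a median length of 712.8 bases and respiratory chain transcripts one of 683 bases. After correction for length and GC content the ribosomal median was 0.028, with 63 of 74 genes positive, and the respiratory median was 0.011, with 50 of 75. HT control replicate 6 scored 0.23 for ribosomal protein and 0.19 for respiratory chain genes, higher than every other library on both lists, and without it the medians were 0.078 and 0.061. Proteasome transcripts had a median length of 1239 bases and a median GC content of 49.5%. Over all settings, the length and GC correction included, the proteasome median was lowest at 0.037, without HT control replicate 1.

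With all libraries, glial, vascular and blood lists had medians of opposite sign in the genotypes. Median differences in WT and HT were 0.07 and -0.07 for 24 mature oligodendrocyte genes, 0.16 and -0.08 for 20 endothelial genes, and 0.08 and -0.11 for 22 microglial genes. For 20 mural and fibroblast genes they were 0.14 and -0.06, and for 9 blood genes 0.35 and -0.08. No member passed in either genotype or in the interaction with all libraries, so the opposite signs are a description. For 3 of the 5 lists a sign rested on single libraries. HT control replicate 6 had the highest microglia score of the 23 libraries (0.50), and without it the HT medians were -0.03 for microglial and -0.0004 for blood genes. The HT median was 0.0015 for microglial and 0.0010 for mural and fibroblast genes without HT shock replicate 2, and 0.03 for blood genes without HT shock replicate 3. The WT microglial median was -0.0054 without WT shock replicate 5, and the WT blood median was 0.22 without WT shock replicate 3, the library with the highest blood score. Pooled medians with 1 library omitted in turn ran from -0.009 to 0.036 for oligodendrocyte, from 0.0052 to 0.061 for endothelial, from -0.04 to 0.05 for microglial, from 0.0056 to 0.064 for mural and fibroblast, and from 0.04 to 0.19 for blood genes. Choroid plexus and ependymal genes had a pooled median of 0.13 with 15 of 20 positive, including Calml4 (0.41, unadjusted p = 0.00495) and Foxj1, the master regulator gene of motile cilia (0.14, unadjusted p = 0.014). Their medians were 0.17 in WT and 0.01 in HT, and without WT shock replicate 1 the pooled median was 0.079.

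**Figure D5:**
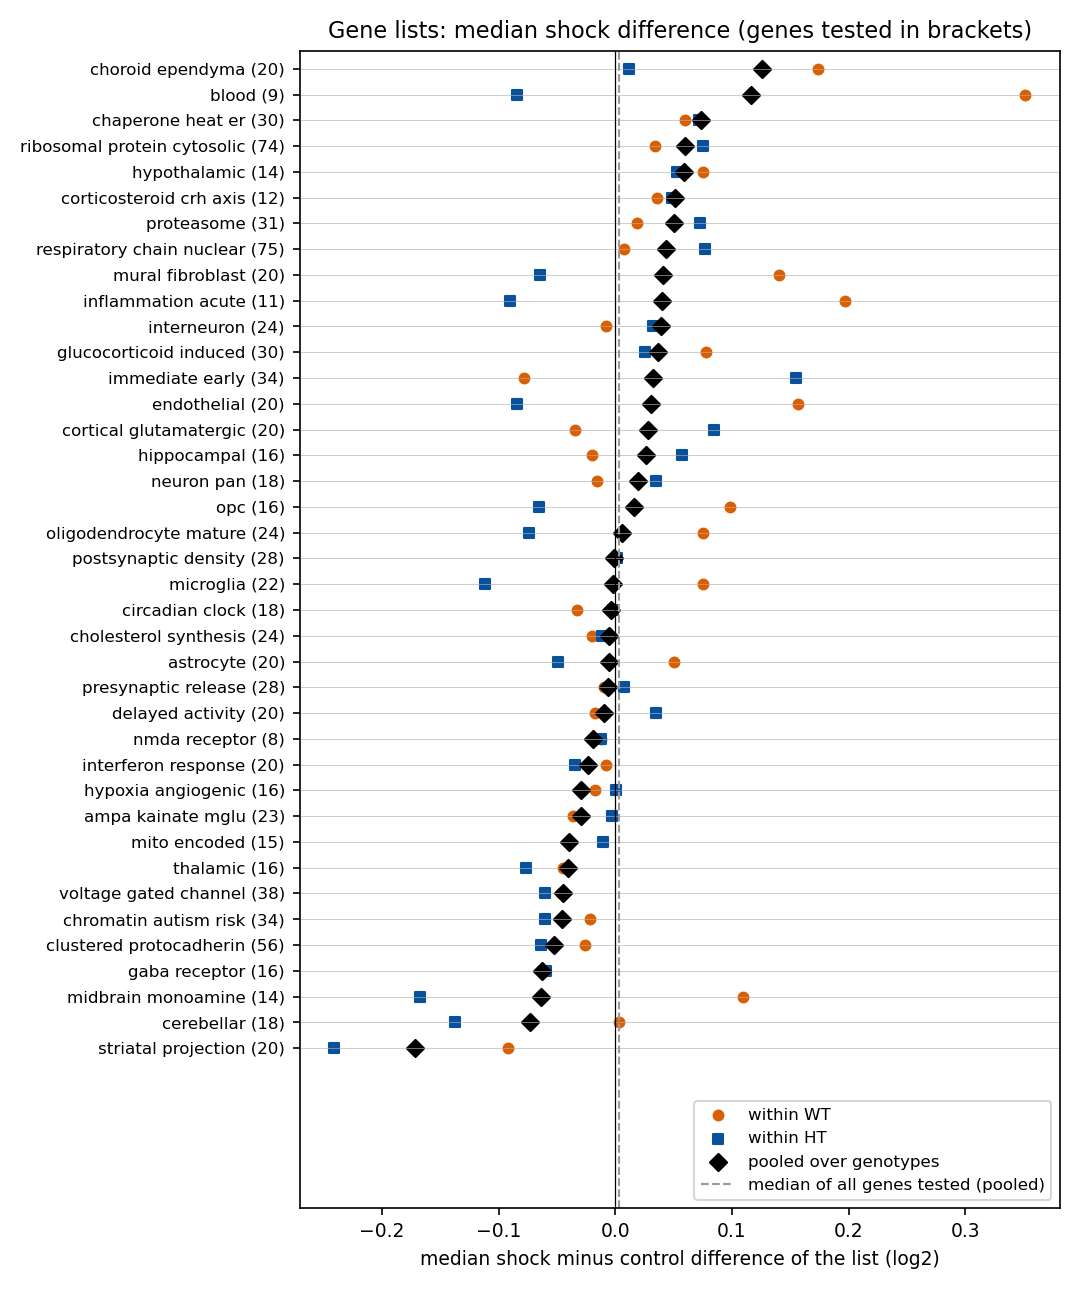
Median shock minus control difference (log2) of 39 gene lists, pooled (diamonds), within WT (circles) and within HT (squares), with the number of genes tested in brackets. Striatal projection genes lie lowest at -0.17, the pooled medians of most lists lie within 0.1 of 0, and glial, vascular and immediate early lists have WT and HT medians on opposite sides of 0.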

How the data were processed

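Messenger RNA of mouse brain was prepared with a stranded kit, per the labels' protocols. The authors deposited one table of normalized counts with decimals, here called a signal and not raw counts. The tools Salmon 1.1.0, DESeq2 1.26.0 and R 3.6.2 and the GRCm38 build come without roles, per the submitters' processing notes. Between 17.3% and 23.8% of low values lay within 0.1 of a whole multiple of a library's step, so reads could not be recovered and no count model was fitted. Of 24 library columns, 1 matched no label and was not used. Symbols were matched for 18563 of 18578 IDs.

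The analysis used log2(normalized count + 1) of genes whose mean was 10 or more. limma 3.58.1 in R 4.3.3, with trend and robust moderation, was fitted to all 23 libraries with genotype and treatment as additive terms. A second fit with 4 group means gave the shock differences within WT and HT and their interaction. The fit was tested on simulated data. The rule named Grin2b, the 6 genes with the smallest p in each direction among genes with a mean of 20 or more and a proper symbol, the 2 smallest p of each of 39 gene lists, and the 5 activity and 4 glucocorticoid genes. Further list members and genes called without HT control replicate 6 were named after their values were seen. The members and lists were chosen with earlier results of these data known. Lists are described by counts and medians, with no set test. The length and GC correction removed from each library a smooth curve (splines with 5 degrees of freedom) on transcript length and GC content in GENCODE. Same-number libraries of different groups had mean correlations of their deviations between -0.05 and 0.09, against -0.0035 for differently numbered libraries. The highest mean, 0.09, belonged to number 1, whose pairs ran from -0.06 to 0.19. The main fit was planned without a replicate block, so replicate numbers were not used there to pair samples. Paralogs and overlapping genes share reads and are uncertain. Plots used matplotlib 3.10.9 under Python 3.11.15. Some genes that the rule or a setting selects are not reported here.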

Additional observations from a re-analysis of the deposited data

Results flagged for a closer look

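In 124 groups tested (24 genes and 7 list scores in 4 groups each), 5 had a library far from the others by Dixon's test, and chance flags about 1 in 20 groups. Ankrd34b had 1034 normalized counts in WT shock replicate 3, where the other WT shock libraries had 938.9 to 953. Kcnab1 had 2812 in HT control replicate 6, against 3342 to 3639 in the others. Tsc22d3 had 3486 in WT control replicate 6, against 2653 to 2905. The immediate early score of HT shock replicate 5 was -0.21, where the other HT shock libraries scored 0.14 to 0.30. The glucocorticoid score of HT control replicate 2 was 0.14, against -0.23 to -0.10 in its group.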

How the results depend on the processing

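The count of 0 genes in the pooled comparison was also found with a replicate block of the titles (0 genes, smallest adjusted p 0.485), with a replicate block by library number (0 genes), with other pseudocounts, filters, centring and moderation, and without the genotype term. It was 6 with library weights and ranged from 0 to 34 when each library was left out, the 34 arising without HT control replicate 6 and 0 without any other. It was 1 with the length and GC correction and HT control replicate 6 omitted, a setting chosen after seeing the data. Within HT, 0 genes passed with all libraries, 2792 with library weights, 4 with the leading residual component added, 4 at an adjusted p of 0.1, 3 with the length and GC correction, 2 when that was joined to the replicate block, 832 when it was joined to the omission of HT control replicate 6, and 0 to 2065 when each library was left out. Besides the 2065 without HT control replicate 6, calls there arose in 3 omissions, 6 without HT shock replicate 6, 4 without WT control replicate 1 and 1 without HT control replicate 3. The interaction gave 2 genes with library weights, 6 with the length and GC correction and HT control replicate 6 omitted, and 0 to 1 when each library was left out. WT gave 0 genes in each setting, with 637 at an unadjusted p under 0.05 in the main comparison. The cause of these changes was not tested.

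Of the genes named, Arc, Nr4a1 and Per1 changed sign in some settings. Nr4a1 was -0.0022 with 4 group means, -0.021 with the replicate block of the titles, -0.032 with library weights, -0.015 with the length and GC correction, -0.051 with that and the replicate block and -0.093 with that and HT control replicate 6 omitted, and -0.059 to -0.0015 in the leave-one-out fits that reversed it, whose full range was -0.059 to 0.097. Per1 was -0.0048, -0.012 and -0.016 with library weights, the corrected block and the corrected omission, and -0.024 to 0.068 over all leave-one-out fits. Arc was -0.056 with the corrected omission and -0.021 to 0.20 over all leave-one-out fits, negative without HT control replicate 5 or 6. Depth is unknown, so no counting error limits are given.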
